A study of Caenorhabditis elegans with 58 samples.

Results

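The heterochronic genes time the cell fates of the Caenorhabditis elegans larva, and 8 of them were taken by name: lin-14, lin-28, lin-29, lin-41, lin-42, lin-46, hbl-1 and blmp-1. The gene rows of these names were followed in all 58 libraries of the series, among 45410 entries in the count tables. A gene with fewer than 10 counts in every library was left out, which removed lin-28 and hbl-1 and left 6 genes. All libraries are total RNA of whole animals picked as mid-L4 larvae, the last larval stage.

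One experiment followed parental conditions in 36 libraries, 4 in each of 9 groups. WT F1-1DOA and WT F1-4DOA are wild-type self-progeny of mothers on day 1 or day 4 of adulthood, grown at 20°C. WT F1-25C spent a single generation at 25°C, and WT F1-back is the progeny of mothers returned from 25°C to 20°C. The groups set-2 F1-1DOA, set-2 F1-4DOA and set-2 F1-25C are their counterparts in set-2(zr1208), a point mutant of an H3K4 methyltransferase. WT 1DOA x 1DOA and WT 1DOA x 4DOA are the offspring of young wild-type males and wild-type hermaphrodites on day 1 or day 4. According to the study's methods, males for such crosses carried the fluorescent reporter oyIs14, by which cross-progeny were picked. Whether the sequenced self-progeny carried it is not stated there. A second experiment held 22 libraries of lines from outcrosses at F3 and F5, kept at 20°C. Lines from a cross of wild-type males with wild-type hermaphrodites are called WT-ctrl. Wild-type males crossed with set-2(zr1208) hermaphrodites gave wild-type descendants, called WT-des, and descendants homozygous for the mutation, called MUT-des. Each generation held 3 MUT-des libraries and 4 of each of the other kinds, and the descendants came from a single cross. Replicates are independent experiments for parental conditions and independent lines for the outcross, according to the study's methods.

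The heterochronic pathway is a sequence of switches in which small RNAs turn off one stage's regulators so that the next stage can begin. LIN-14 sets the first larval fates, LIN-28 and HBL-1 the second, and LIN-41 holds back the adult programme until the microRNA let-7 represses it. LIN-29 then drives the seam cells of the skin to exit the cell cycle and make the adult cuticle. LIN-42, the worm relative of the clock protein Period, and BLMP-1, a Blimp-1 zinc finger factor, act alongside in every larval cycle, and lin-42 mRNA is known to rise and fall with each molt. LIN-46, a gephyrin-like protein, acts below LIN-28 and opposes HBL-1. The genes were followed as a reading of stage at sampling, and each value is an average over the animals and tissues of a pool. In such samples fewer cells of a type and less RNA per cell cannot be told apart.

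The depth was 2819460 to 31543107 counts per library in the parental experiment (median 12993669.5). It was 14071245 to 25733464 in 21 outcross libraries, whereas WT-ctrl F5 replicate 2 held 1271186 counts and was kept out of the fits and means. Levels are given as CPM, counts relative to the library total after TMM scaling, set separately in each experiment. No pair of libraries held identical values. The set-2 gene row cannot check the genotype, since the allele is a point mutation. Markers of hypodermis, intestine, muscle, neurons, pharynx, sperm and oocytes were present, except that unc-15, unc-119, pha-4 and her-1 were listed at 0 in every library, and the male list summed to at most 2.84 CPM.

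The regulators of the earliest fates had few counts in their gene rows. The hbl-1 row held 0 counts in all 58 libraries, and a second entry for the gene, named by a transcript, reached 2. The lin-28 row held at most 4 counts and was at 0 in 36 libraries, while its second entry ranged from 4 to 115 counts (median 43). For lin-14 the gene row ranged from 0 to 29 counts (median 12) and the second entry from 1 to 63 (median 19). Where a gene has more than 1 entry, reads shared by its transcripts may have gone to neither, so neither low counts nor 0 in these rows show that the gene was silent, and the levels cannot be compared with those of other genes, and changes of lin-14 rest on few counts.

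The other 5 genes each have 1 entry. Over all 58 libraries the lin-46 row ranged from 4 to 145 counts (median 47.5), so changes of lin-46 also rest on few counts. Per kilobase of exon, over the 57 libraries, lin-42 was the most abundant with a median of 36.95 CPM per kb, followed by blmp-1 with 11.2, lin-29 with 9.65 and lin-41 with 8.75. The median of lin-46 was lower, at 2.19 CPM per kb. The spread between libraries was wide: from the lowest to the highest library the level differed 27.1-fold for blmp-1, 25.9-fold for lin-41, 10.4-fold for lin-42, 9.54-fold for lin-29 and 4.07-fold for lin-46.

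**Figure D1:**
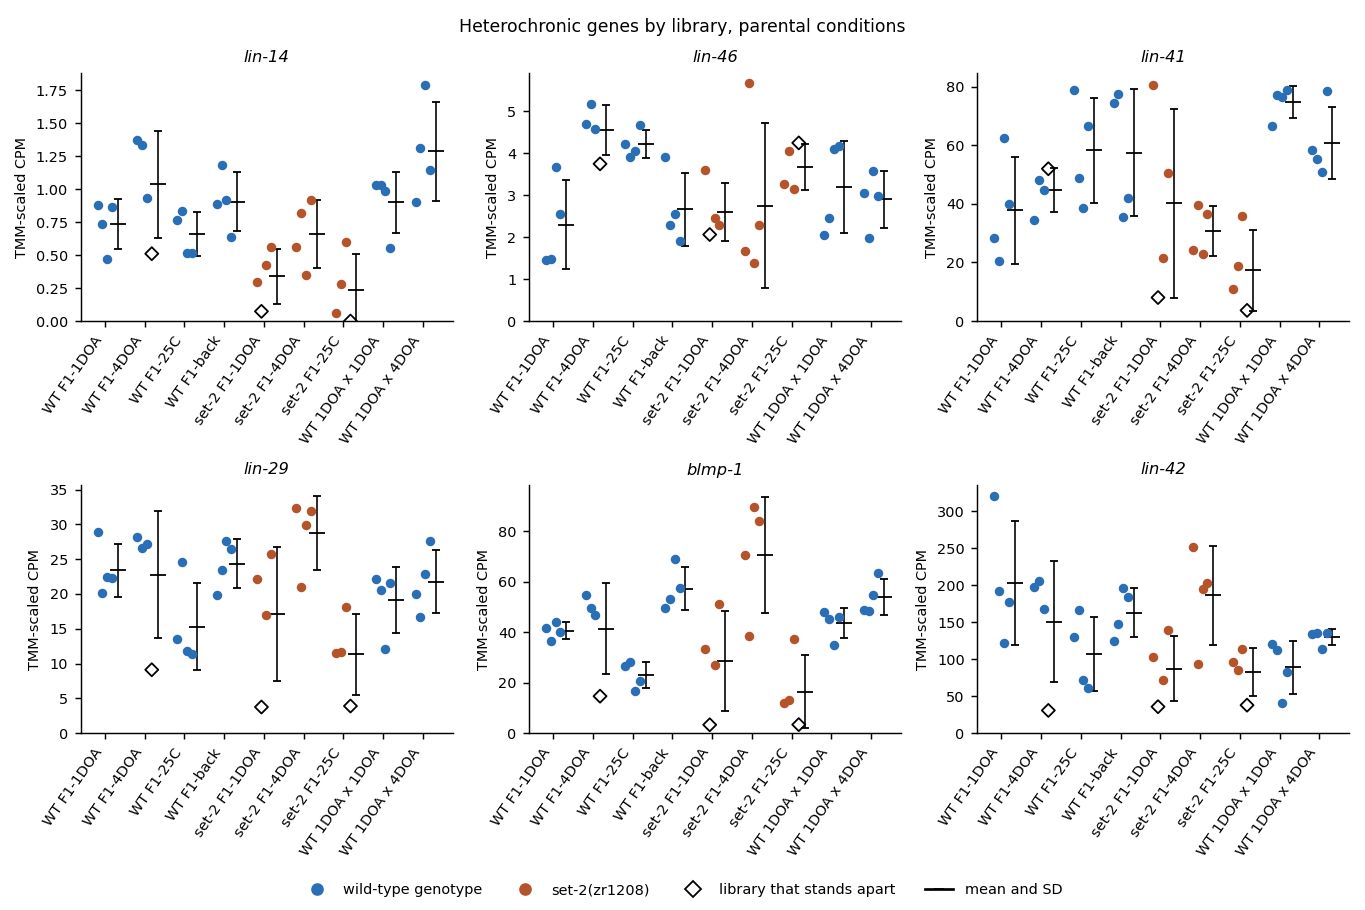
Level of each gene (TMM-scaled CPM, linear axes from 0) in the 36 libraries of the parental experiment, 1 point per library, with the mean and SD of each group of 4 beside the points. Open diamonds mark WT F1-4DOA replicate 4, set-2 F1-1DOA replicate 2 and set-2 F1-25C replicate 4, where lin-29 lay between 3.76 and 9.11 CPM, below every other library.

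Among these genes, lin-29 and lin-42 set 3 libraries apart: WT F1-4DOA replicate 4, set-2 F1-1DOA replicate 2 and set-2 F1-25C replicate 4. Their lin-29 levels were 9.11, 3.76 and 3.90 CPM, against 11.4 to 32.4 CPM in the other 33 libraries of the experiment. Their lin-42 levels were 30.7, 35.8 and 37.9 CPM, against 41.2 to 321 CPM. For blmp-1, the 2 set-2 libraries lay at 3.31 and 3.38 CPM and the wild-type one at 14.6 CPM, which is inside the range of the others (11.8 to 89.7). Likewise for lin-41, the set-2 libraries lay at 8.03 and 3.64 CPM and the wild-type one at 51.9 CPM, inside the range of the others (10.9 to 80.7). In lin-46 all 3 lay inside that range, at 3.75, 2.06 and 4.25 CPM against 1.39 to 5.66 CPM. All 3 libraries were high in major sperm protein genes, whose 29 members summed to 6083, 7937 and 7229 CPM, against 1198 to 4802 CPM elsewhere. The furrow and body-shape collagens split them, with sums of 4421, 13180 and 18979 CPM against 4838 to 16934 CPM elsewhere. Genes of the seam cells, which the heterochronic pathway controls, summed over 11 genes to 81.3 and 79.1 CPM in the 2 set-2 libraries, below the 115 to 261 CPM elsewhere, and to 149 CPM in WT F1-4DOA replicate 4, inside that range. In the 2 set-2 libraries, genes with at least 4000 exon bases were also low relative to genes under 1000, by log2 −1.70 and −1.80, and WT F1-4DOA replicate 4 lay at −0.48, inside the range of the others (−1.10 to 0.75). The part of sperm content, seam cell content and gene length in these levels was not tested. Results are given with and without these 3 libraries where that changes them, a choice made after seeing the data. They were picked by low levels of these genes, so leaving them out narrows the spread of the same genes. Calls made only without them are therefore not a separate test.

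Across the 9 groups, the means of lin-42 ran from 203 ± 84.1 CPM (SD, n = 4) in WT F1-1DOA to 83.3 ± 32.3 in set-2 F1-25C. Those of blmp-1 ran from 70.7 ± 22.9 CPM in set-2 F1-4DOA to 16.4 ± 14.5 in set-2 F1-25C. The lin-29 means ran from 28.8 ± 5.32 CPM to 11.3 ± 5.84 between the same groups. Thus set-2 F1-25C was lowest for these 3 genes, and also for lin-41 (17.3 ± 13.8 CPM) and lin-14 (0.237 ± 0.272 CPM). Without the 3 libraries that stood apart it was lowest for 4 of these 5 genes, and for lin-42 it was at 98.4 ± 14.01 CPM (n = 3), above WT 1DOA x 1DOA at 89.4 ± 35.9 CPM (n = 4). Its median long-minus-short value of −0.86 was the lowest of the groups, and the part of gene length in these levels was not tested. The highest lin-41 mean was that of WT 1DOA x 1DOA, at 74.7 ± 5.58 CPM. In lin-46 the order differed, with WT F1-4DOA highest at 4.55 ± 0.595 CPM, WT F1-25C next at 4.21 ± 0.331 and WT F1-1DOA lowest at 2.29 ± 1.06. Neighbouring groups in each order overlapped in their libraries for all 8 neighbours in lin-14, lin-29, lin-41, lin-42 and lin-46, and for 7 of 8 in blmp-1, where WT 1DOA x 4DOA lay above WT 1DOA x 1DOA.

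Libraries of the same group differed more in these genes than in most genes. The within-group SD of log2 CPM was 0.84 for blmp-1, 0.77 for lin-41, 0.73 for lin-42 and 0.65 for lin-29, against a median of 0.33 over all 15306 genes tested. These values were larger than those of 96.4%, 94.6%, 92.9% and 88.6% of genes. That of lin-46 was smaller, at 0.45, larger than 70.9% of genes. These SDs include the 3 libraries that stood apart and were not computed without them. On the log2 scale those lay −1.18, −1.85 and −1.31 from their group means in lin-29, and −1.33, −2.53 and −1.77 in blmp-1. In the outcross libraries lin-41 again stood high, with 0.78 and above 95.1% of the 15872 genes, whereas blmp-1 (0.25), lin-46 (0.29), lin-29 (0.30) and lin-42 (0.35) lay near the median gene (0.32).

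To ask whether the parental conditions moved the timing genes, each group was compared with its control by edgeR's quasi-likelihood test over all genes, with a Benjamini-Hochberg adjusted p under 0.05 as the threshold. None of the 6 genes passed in any of the 15 comparisons. Of the 90 pairs of gene and comparison, 18 (20.0%) had an unadjusted p under 0.05, close to the 19.1% of all genes over the same comparisons. The share of all genes in single comparisons ran from 2.51% for WT-des against WT-ctrl to 38.1% for set-2 F1-4DOA against set-2 F1-1DOA. What follows are therefore values with their intervals, and the comparisons with WT F1-1DOA share that control. Shares of all genes that passed are those of this edgeR fit. They were not computed for DESeq2 or the other alternative fits, so calls made there have no share beside them.

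**Figure D2:**
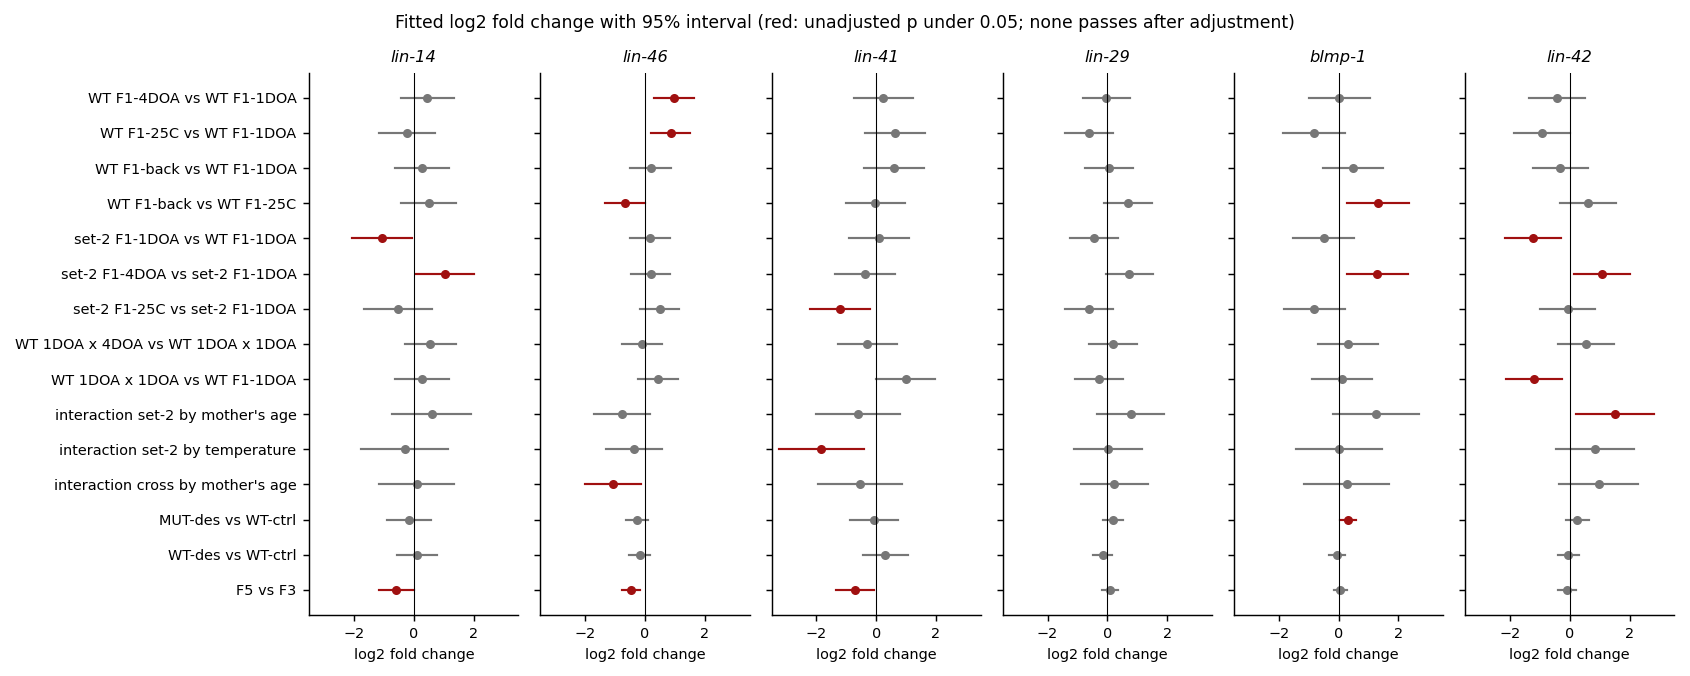
Fitted log2 fold change of each gene (x axis) in the 15 comparisons (y axis), with bars for the 95% interval from edgeR. Red marks an unadjusted p under 0.05, and none of these 18 values passed after adjustment.

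In progeny of old mothers, WT F1-4DOA against WT F1-1DOA, 0 of 6 genes passed, where 3.59% of all genes did, with 1 at an unadjusted p under 0.05 and 0 by DESeq2. This gene was lin-46. Its levels were 4.71, 5.18, 4.58 and 3.75 CPM in WT F1-4DOA and 1.47, 1.47, 3.68 and 2.55 CPM in WT F1-1DOA. Those of WT F1-1DOA rest on 15, 12, 39 and 59 counts. The groups did not overlap, as in 8.79% of all genes, and the nearest libraries were WT F1-1DOA replicate 3 and WT F1-4DOA replicate 4. The log2 fold change was 0.96 (standard error 0.33, 95% interval 0.30 to 1.63, edgeR adjusted p = 0.107), and without WT F1-1DOA replicate 3 it was 1.19 with an adjusted p of 0.0475, the lowest of 15 alternatives that reached up to 0.352. Values near 0 were found for lin-29 at −0.04 (−0.83 to 0.75), blmp-1 at 0.03 (−0.98 to 1.04) and lin-41 at 0.24 (−0.75 to 1.24). In replicate 4, lin-29 was at 9.11 and blmp-1 at 14.6 CPM. The other 3 WT F1-4DOA libraries held lin-29 at 26.6 to 28.1 and blmp-1 at 46.7 to 54.7 CPM. WT F1-1DOA held 20.1 to 28.9 and 36.4 to 44.1 CPM. Over 16 alternatives the value ran from −0.16 to 0.19 for lin-29 and from −0.13 to 0.28 for blmp-1. Neither gene was called in any of them. For lin-42 the value was −0.43 (−1.35 to 0.49), with 30.7 CPM in replicate 4 and 169 to 206 CPM in the other 3 WT F1-4DOA libraries. Among genes of the adult cuticle and the seam cells, 1 of each list rose: col-19, an adult collagen known as a target of LIN-29 (log2 fold change 2.22, standard error 0.50, adjusted p 0.00953 in edgeR), and the seam cell gene grd-10 (2.44, standard error 0.61, adjusted p 0.0184). The other 6 of 7 adult cuticle genes and 10 of 11 seam cell genes did not pass, and the medians of the lists were −0.17 and 0.06. All 5 vitellogenins, the yolk proteins of the adult, passed as higher, with a median log2 fold change of 2.86, against −0.01 over all genes.

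At 25°C, WT F1-25C against WT F1-1DOA, 0 of 6 genes passed (8.25% of all genes), with 1 at an unadjusted p under 0.05 and 0 by DESeq2. The same gene, lin-46, had 4.21, 3.91, 4.06 and 4.68 CPM at 25°C, above all 4 controls, and non-overlap was seen in 16.3% of all genes. Its log2 fold change was 0.86 (standard error 0.33, edgeR adjusted p = 0.103). Without WT F1-1DOA replicate 3, the highest of the controls at 3.68 CPM, it was called (edgeR adjusted p = 0.0392). This was the only call among 15 alternatives, whose adjusted p reached up to 0.317. The levels of lin-29 were 13.5, 24.6, 11.8 and 11.4 CPM, against 28.9, 20.1, 22.4 and 22.2 CPM in the controls. Those of blmp-1 were 26.7, 28.1, 16.8 and 20.7 CPM, against 41.8, 36.4, 44.1 and 40.2 CPM, again without overlap. In lin-29 only replicate 2 reached the controls. The log2 fold changes were −0.63 (−1.43 to 0.17) for lin-29, −0.82 (−1.84 to 0.20) for blmp-1 and −0.92 (−1.86 to 0.01) for lin-42, with adjusted p of 0.404, 0.388 and 0.251. Without the 3 libraries that stood apart, none of which is in these 2 groups, edgeR called lin-29 and blmp-1 as lower, with adjusted p of 0.0466 and 0.0403. The standard error of lin-29 went from 0.39 to 0.22 and that of blmp-1 from 0.50 to 0.27. That narrowing follows from how the libraries were picked, so these calls add no support for a change at 25°C. In a fit to the compared groups alone, blmp-1 was also called as lower (edgeR adjusted p = 0.0061) and lin-29 was not. That fit, planned beforehand, leaves out the same 3 libraries along with all other groups. Over 16 alternatives, the adjusted p of blmp-1 reached up to 0.592. In lin-41 the value was 0.62 (−0.37 to 1.62). Of the molting genes 3 of 22 fell, namely mlt-8, mlt-10 and acn-1, and 0 rose, with a median log2 fold change of −0.61. As in progeny of old mothers, col-19 rose, by 1.63 (standard error 0.49, edgeR adjusted p = 0.0345), and grd-10 rose, by 2.20 (standard error 0.61, edgeR adjusted p = 0.0207), while the adult collagen col-63 fell. The other 5 of 7 adult cuticle genes and 10 of 11 seam cell genes did not pass, and the medians of the lists were −0.50 and 0.01. Of 17 oocyte and eggshell genes 16 passed as higher, with a median of 0.97, and among major sperm proteins 6 of 29 as lower.

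After the return to 20°C, WT F1-back against WT F1-1DOA, 0 of 6 passed (0.751% of all genes), none at an unadjusted p under 0.05 and none by DESeq2 either. The blmp-1 levels of 49.6, 53.3, 68.9 and 57.4 CPM all lay above the controls, and 15.4% of all genes did not overlap between these groups. The log2 fold change was 0.50 (standard error 0.49, edgeR adjusted p = 0.748). When only the groups compared were fitted, blmp-1 was called as higher (edgeR adjusted p = 0.0273).

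Against WT F1-25C, WT F1-back again gave 0 of 6 (18.7% of all genes). An unadjusted p under 0.05 was found for 2, and DESeq2 called 1, blmp-1. Its log2 fold change was 1.32 (standard error 0.50, 95% interval 0.29 to 2.34, edgeR adjusted p = 0.0655), and its adjusted p ranged from 0.000319 to 0.137 over 16 alternatives, 4 of which called it. The other gene was lin-46, at 3.91, 2.29, 2.55 and 1.90 CPM in WT F1-back, of which the highest was 3.909 against a lowest of 3.911 at 25°C, and the difference was log2 −0.67 (standard error 0.32, edgeR adjusted p = 0.147). Neither blmp-1 nor lin-46 overlapped between the groups, which held for 31.5% of all genes. For lin-29 the value was 0.69 (−0.12 to 1.49), and it was called as higher without the 3 libraries that stood apart (edgeR adjusted p = 0.0157) and, with lin-46 as lower, when the groups compared were fitted alone. For lin-41 it was −0.02 (−1.01 to 0.97). Among genes with related roles, 7 of 22 molting genes rose and 0 fell, including nekl-3 and nekl-2, kinases needed to shed the old cuticle, mlt-8 and mlt-10. Their log2 fold changes were 0.71 for nekl-3, 0.52 for nekl-2, 1.04 for mlt-8 and 1.58 for mlt-10 (edgeR adjusted p of 0.00445, 0.00458, 0.00612 and 0.00883). In the rest of the pathway 1 of 15 genes passed: xrn-2, an exonuclease that degrades microRNAs, at 123 ± 16.8 CPM (SD, n = 4) in WT F1-back and 79.1 ± 12.1 in WT F1-25C, 0.64 higher on the log2 scale (standard error 0.19, edgeR adjusted p = 0.0188). At the same time all 17 oocyte and eggshell genes fell. Of the adult cuticle and seam cell genes, col-19 and grd-10 passed as lower and col-63 as higher.

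In the set-2 mutant, set-2 F1-1DOA against WT F1-1DOA, 0 of 6 passed (11.9% of all genes), with 2 at an unadjusted p under 0.05, and DESeq2 called 1, lin-42. The lin-42 levels were 103, 35.8, 71.2 and 140 CPM in the mutant and 321, 193, 122 and 178 CPM in WT F1-1DOA. Only the mutant replicate 4 reached into the control range. The log2 fold change was −1.22 (standard error 0.46, 95% interval −2.15 to −0.28, edgeR adjusted p = 0.0733), with adjusted p from 0.0352 to 0.251 over 16 alternatives, and lin-42 was called also without set-2 F1-1DOA replicate 4 (edgeR adjusted p = 0.0405). Its log2 fold change was −0.97 without the 3 libraries that stood apart (edgeR adjusted p = 0.0740). For lin-14 it was −1.06 (standard error 0.49, edgeR adjusted p = 0.134), at 0.294, 0.0736, 0.427 and 0.563 CPM against 0.472 to 0.880 CPM. Levels of blmp-1, at 33.2, 3.31, 26.98 and 51.1 CPM, and of lin-41, at 80.7, 8.03, 21.4 and 50.5 CPM, were lowest in replicate 2, and non-overlap with WT F1-1DOA, seen in 15.4% of all genes, held for none of the 6. The group's long genes were low too, with a median long-minus-short value of −0.69 against 0.12 in WT F1-1DOA, and its part in these values was not tested. In the rest of the pathway 1 of 15 genes fell, dcr-1, which encodes Dicer, with 88.2 ± 19.2 CPM (SD, n = 4) against 127 ± 12.9, a difference of log2 −0.52 (standard error 0.16, edgeR adjusted p = 0.0303).

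In the progeny of old set-2 mothers, set-2 F1-4DOA against set-2 F1-1DOA, 0 of 6 passed (22.5% of all genes), 3 at an unadjusted p under 0.05, and DESeq2 called lin-42 and blmp-1. The blmp-1 levels were 70.6, 38.4, 89.7 and 84.0 CPM in set-2 F1-4DOA, against a highest level of 51.1 CPM in set-2 F1-1DOA. The lin-42 levels were 252, 93.9, 195 and 204 CPM, against a highest of 140. In both genes, replicate 2 was the library that overlapped with the other group. Non-overlap was seen in 17.5% of all genes and in none of the 6. The log2 fold changes were 1.29 (standard error 0.50, edgeR adjusted p = 0.0606) for blmp-1 and 1.09 (standard error 0.46, edgeR adjusted p = 0.0808) for lin-42. The median long-minus-short value was 0.13 in set-2 F1-4DOA and −0.69 in set-2 F1-1DOA, and its part in these values was not tested. Over 16 alternatives, adjusted p ran from 0.0202 to 0.219 for blmp-1 and from 0.0387 to 0.259 for lin-42. Without the 3 libraries that stood apart, blmp-1 was at 0.93 and called (edgeR adjusted p = 0.0268) and lin-42 at 0.85 (edgeR adjusted p = 0.1004). Without set-2 F1-4DOA replicate 2, both were called as higher, and without set-2 F1-1DOA replicate 4 lin-14 was called too. The lin-14 value was 1.05 (standard error 0.47, edgeR adjusted p = 0.101), whereas lin-41 was at −0.37 (−1.37 to 0.63). Of the other pathway genes 2 of 15 rose and 0 fell, a share below that of all genes. They were mab-10, which encodes a cofactor of LIN-29, with 45.6 ± 13.1 CPM (SD, n = 4) against 18.8 ± 9.69, and mab-3, a transcription factor of the male tail acting below LIN-41, with 1.68 ± 1.04 against 0.575 ± 0.343. Their log2 fold changes were 1.27 (standard error 0.45, edgeR adjusted p = 0.0421) and 1.40 (standard error 0.51, edgeR adjusted p = 0.0443). All 29 major sperm proteins fell, with a median of −1.56, and 12 of 17 oocyte and eggshell genes fell; 2 of 22 molting genes rose, fbn-1 and acn-1, again a share below that of all genes. The difference of this effect from that in wild type, tested as an interaction, gave 0 of 6 (1.31% of all genes), 1 with an unadjusted p under 0.05 and 0 by DESeq2. This was lin-42, at 1.52 (standard error 0.64, 95% interval 0.21 to 2.83, edgeR adjusted p = 0.178), and without the 3 libraries that stood apart it was 0.97 (edgeR adjusted p = 0.448). Without set-2 F1-4DOA replicate 2, the interaction passed for lin-46, at −1.37 (edgeR adjusted p = 0.0302). That fit kept set-2 F1-4DOA replicate 3, where lin-46 held 4 counts.

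At 25°C in the mutant, set-2 F1-25C against set-2 F1-1DOA, 0 of 6 passed (8.03% of all genes), with 1 at an unadjusted p under 0.05 and 0 by DESeq2. It was lin-41, at 10.9, 18.9, 35.9 and 3.64 CPM at 25°C and 80.7, 8.03, 21.4 and 50.5 CPM at 20°C. The lowest library of set-2 F1-1DOA lay below 3 of the 4 at 25°C, and the log2 fold change was −1.21 (standard error 0.50, 95% interval −2.23 to −0.19, edgeR adjusted p = 0.124). Non-overlap was seen in 10.1% of all genes and in none of the 6. Without that library, replicate 2, lin-41 was called as lower, and without set-2 F1-25C replicate 3 both lin-41 and blmp-1 were. The median long-minus-short values were −0.86 in set-2 F1-25C and −0.69 in set-2 F1-1DOA, against 0.01 and 0.12 in WT F1-25C and WT F1-1DOA, and their part in the lin-41 values was not tested. In wild type the same shift in temperature gave 0.62 for lin-41, and the interaction was −1.83 (standard error 0.70, 95% interval −3.26 to −0.41, edgeR adjusted p = 0.154), with 0 of 6 passing (3.41% of all genes), 1 at an unadjusted p under 0.05 and 0 by DESeq2. It was −1.84 without the 3 libraries that stood apart (edgeR adjusted p = 0.0504), and without set-2 F1-1DOA replicate 2 it was −2.17 and was called (edgeR adjusted p = 0.0412). Among related genes drsh-1, which encodes the microRNA processing enzyme Drosha, fell at 25°C in the mutant, from 30.3 ± 6.13 to 21.7 ± 3.59 CPM (SD, n = 4), and the interaction passed as well, at −0.83 (standard error 0.20, edgeR adjusted p = 0.0189). It was 1 of 15 pathway genes in both tests. The seam cell gene grd-10, which rose at 25°C in wild type, passed as lower in both tests, as 1 of 11 seam cell genes. Oocyte and eggshell genes passed as lower in the interaction for 11 of 17, and furrow and body-shape collagens as higher for 4 of 16.

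Between the crosses, WT 1DOA x 4DOA against WT 1DOA x 1DOA, 0 of 6 passed (0.0784% of all genes), with 0 at an unadjusted p under 0.05 and 0 by DESeq2. The blmp-1 levels were 48.7, 48.4, 54.6 and 63.6 CPM for old hermaphrodites and 48.1, 45.2, 35.0 and 46.1 CPM for young ones. They did not overlap, as in 6.02% of all genes, and the log2 fold change was 0.30 (−0.70 to 1.31). For lin-42 it was 0.53 (−0.39 to 1.46). The interaction of cross and mother's age gave 0 of 6 (0.608% of all genes), 1 with an unadjusted p under 0.05 and 0 by DESeq2: lin-46, at −1.07 (standard error 0.46, edgeR adjusted p = 0.319).

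Cross-progeny differed from self-progeny in 0 of 6 genes (4.59% of all genes), with 1 at an unadjusted p under 0.05 in edgeR and 0 called by DESeq2. The part of the oyIs14 reporter in this comparison was not tested. In WT 1DOA x 1DOA, lin-42 was at 120.1, 112.998, 41.2 and 83.1 CPM, all below the WT F1-1DOA libraries, of which the lowest held 122 CPM. Conversely lin-41 was at 66.5, 77.1, 76.3 and 78.98 CPM, all above WT F1-1DOA, where it held 28.3, 20.5, 62.3 and 39.9 CPM. Non-overlap was found in 18.5% of all genes. The log2 fold changes were −1.18 (standard error 0.46, edgeR adjusted p = 0.126) for lin-42 and 0.98 (−0.02 to 1.98, edgeR adjusted p = 0.227) for lin-41, and lin-42 was called when the 3 libraries that stood apart were left out. Of the other pathway genes 1 of 15 rose: cgh-1, a DEAD-box RNA helicase of the germline that also takes part in microRNA repression, from 291 ± 133 to 758 ± 34.1 CPM (SD, n = 4), or 1.38 on the log2 scale (standard error 0.41, edgeR adjusted p = 0.0447).

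**Figure D3:**
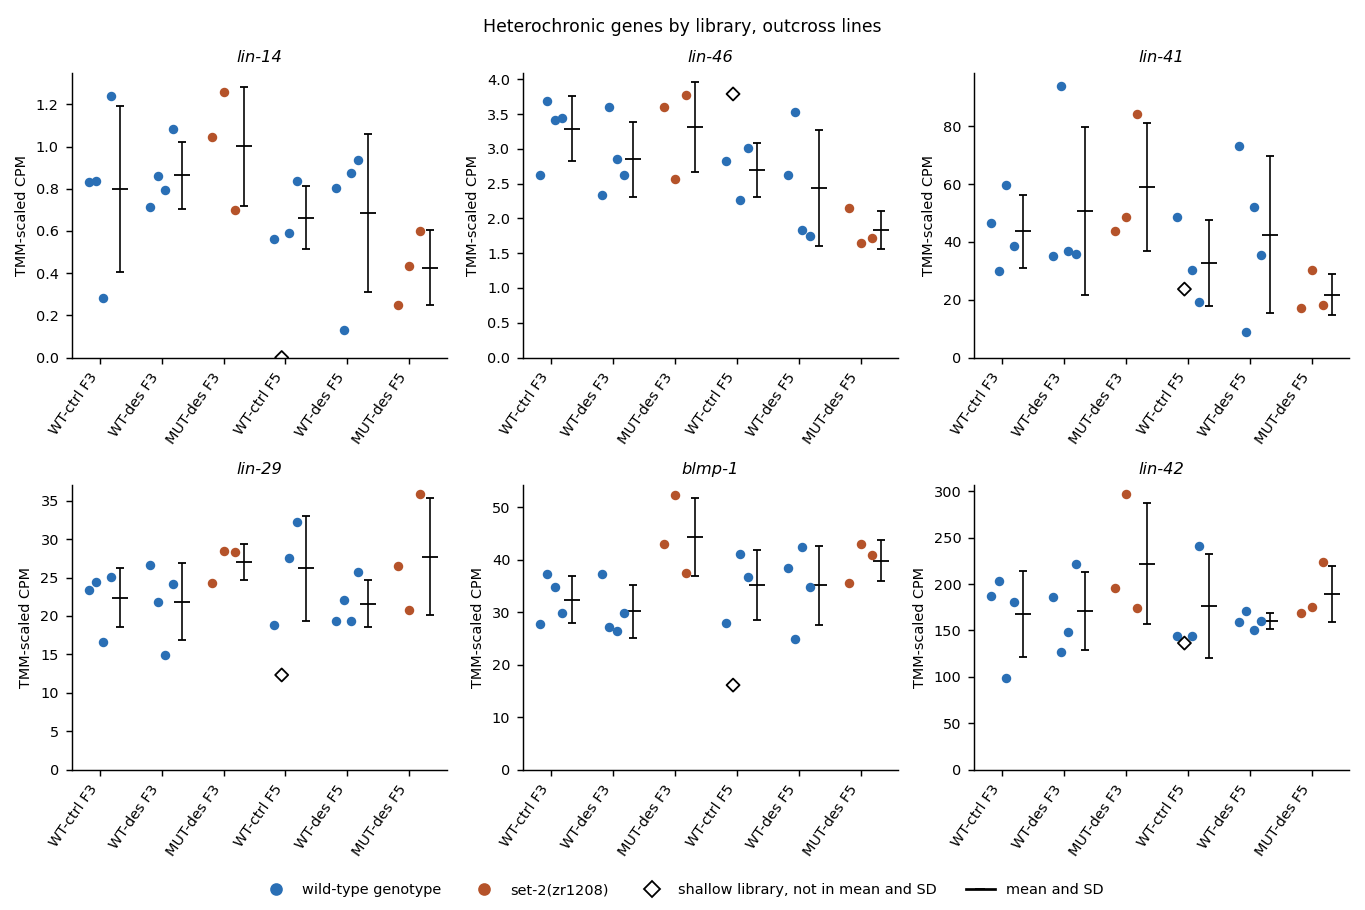
Level of each gene (TMM-scaled CPM, linear axes from 0) in the outcross lines at F3 and F5, 1 point per library, with the mean and SD of each group. The open diamond is WT-ctrl F5 replicate 2, with 1271186 counts, which is not in the mean and SD; the means of lin-46 were 1.84 to 2.69 CPM at F5 and 2.85 to 3.32 CPM at F3.

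In the outcross lines, the means of lin-41 ran from 59.01 ± 22.2 CPM (SD, n = 3) in MUT-des F3 to 21.8 ± 7.24 (n = 3) in MUT-des F5, and those of lin-14 from 1.00 ± 0.282 to 0.427 ± 0.176 CPM between the same groups. The lin-42 means ran from 222 ± 65.4 CPM (SD, n = 3) in MUT-des F3 to 160 ± 8.39 (n = 4) in WT-des F5, and those of lin-29 from 27.7 ± 7.57 (n = 3) in MUT-des F5 to 21.6 ± 3.01 (n = 4) in WT-des F5. The blmp-1 means ran from 44.3 ± 7.49 (n = 3) in MUT-des F3 to 30.2 ± 5.02 CPM (n = 4) in WT-des F3. For each of the 6 genes all 5 neighbours in the order of groups overlapped. MUT-des against WT-ctrl, over both generations, gave 0 of 6 (0.296% of all genes), with 1 at an unadjusted p under 0.05 and 0 by DESeq2. That gene was blmp-1, at 43.1, 52.4 and 37.6 CPM in MUT-des F3, 35.5, 43.1 and 40.9 CPM in MUT-des F5, 27.7, 37.3, 34.7 and 29.8 CPM in WT-ctrl F3 and 27.9, 41.02 and 36.7 CPM in WT-ctrl F5. The log2 fold change was 0.31 (standard error 0.14, 95% interval 0.03 to 0.60, edgeR adjusted p = 0.608). WT-des against WT-ctrl gave 0 of 6 (0.0126% of all genes), with 0 at an unadjusted p under 0.05 and 0 by DESeq2, and log2 fold changes from −0.18 for lin-46 to 0.30 for lin-41. Intervals in the outcross were narrow for blmp-1 (−0.32 to 0.21 in WT-des) and wide for lin-41 (−0.45 to 1.05).

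Between F5 and F3, with the 3 kinds of line weighted equally, 0 of 6 passed (8.34% of all genes), 3 at an unadjusted p under 0.05, and 1, lin-46, was called by DESeq2. In lin-46 the levels at F3 were 2.62, 3.68, 3.42 and 3.45 CPM in WT-ctrl, 2.34, 3.60, 2.85 and 2.62 in WT-des and 3.60, 2.57 and 3.78 in MUT-des. At F5 they were 2.82, 2.26 and 3.01 CPM in WT-ctrl, 2.63, 3.53, 1.84 and 1.75 in WT-des and 2.15, 1.65 and 1.71 in MUT-des. In WT-ctrl and in WT-des the libraries of the generations overlapped. The log2 fold change was −0.46 (standard error 0.14, 95% interval −0.76 to −0.16, edgeR adjusted p = 0.0518). It passed in 9 of 29 alternatives, among them the 4 that left out MUT-des F3 replicate 2, replicate 1 of WT-des F3, replicate 1 of WT-ctrl F3 and replicate 2 of WT-des F5 in turn, with adjusted p from 0.0167 to 0.109. The values of lin-41 and lin-14 were −0.70 (standard error 0.30, edgeR adjusted p = 0.150) and −0.58 (standard error 0.27, edgeR adjusted p = 0.181). For lin-41 single lines reached far, with 94.2 CPM in WT-des F3 replicate 2 and 8.996 CPM in WT-des F5 replicate 2. Over the same comparison 10 of 17 oocyte and eggshell genes fell (median −0.54), as did vit-6 alone of 5 vitellogenins (median −1.42), while in the rest of the pathway 0 of 15 passed.

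The rest of the pathway can be summed up over all comparisons. In 9 of the 15, 0 of its 15 tested genes passed, namely WT F1-4DOA, WT F1-25C and WT F1-back against WT F1-1DOA, the crosses by mother's age, the interactions of set-2 and of the cross with mother's age, and the 3 outcross comparisons. The list held 32 names, of which 25 had a row, and the microRNAs lin-4, let-7, mir-48, mir-84 and mir-241 had none. Summed over the 15 tested genes, the level ranged from 561 to 1764 CPM in the parental experiment without the 3 libraries that stood apart, which held 1037, 435 and 330 CPM.

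**Figure D4:**
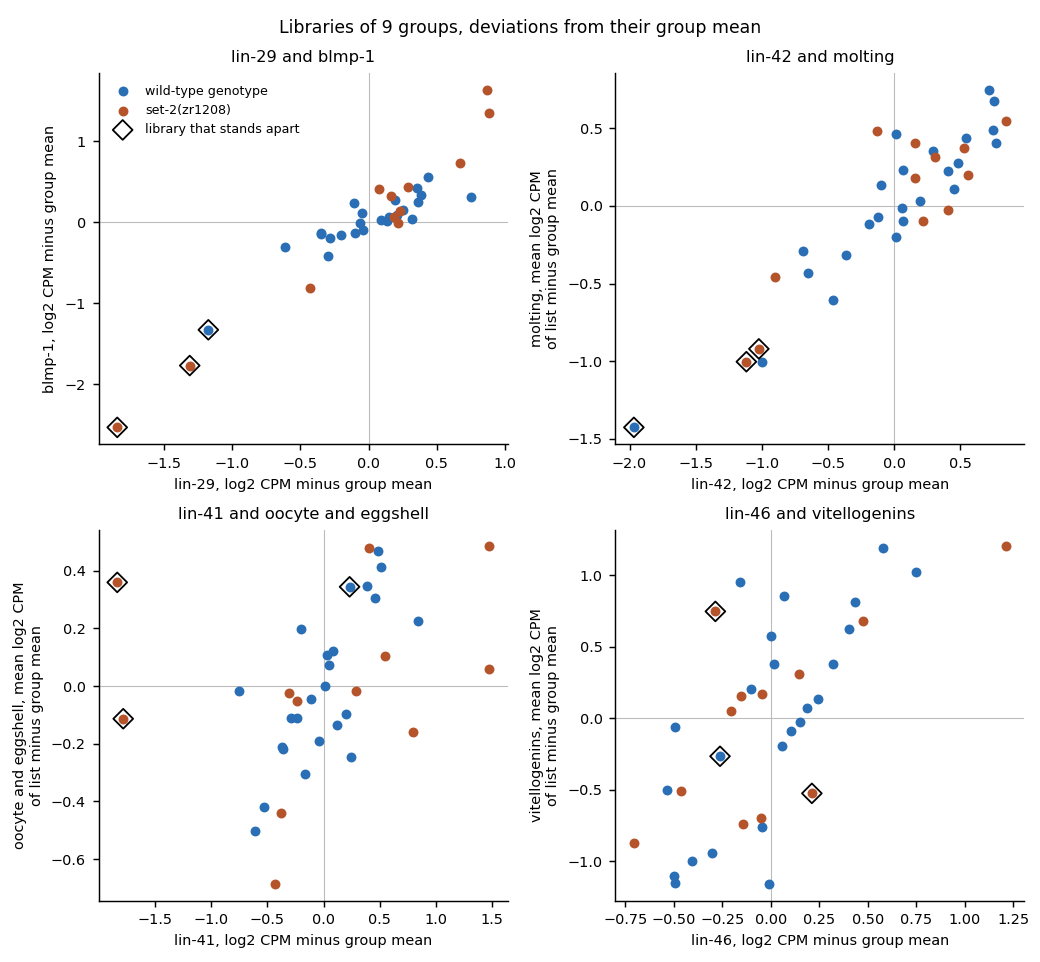
Deviation of each of 36 libraries from its group mean (log2 CPM), for lin-29 and blmp-1 (Pearson r 0.94), lin-42 and the molting list (0.91), lin-41 and the oocyte and eggshell list (0.39), and lin-46 and the vitellogenins (0.69). Blue is wild-type genotype, orange set-2(zr1208), and diamonds are the 3 libraries that stood apart.

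Because libraries of a group differed so much, the genes were next compared library by library, as deviations of log2 CPM from the group mean, so that differences between groups play no part. With 6 genes, 6 lists and a measure of gene length, 57 relations were computed in each experiment, each with 100000 permutations of libraries within groups, and the smallest p these can give is 1e-05. In the 36 parental libraries lin-29, blmp-1 and lin-42 moved together. The correlation of lin-29 with blmp-1 was 0.94 (Spearman 0.88, permutation p = 1e-05 for both, adjusted p = 0.000142), with lin-42 0.85 (Spearman 0.83, permutation p = 1e-05 for both, adjusted p = 0.000142), and that of lin-42 with blmp-1 0.76 (Spearman 0.75, permutation p = 1e-05 and 3e-05, adjusted p = 0.000142 and 0.000285). Leaving out the 2 libraries farthest from the median gave 0.89, 0.86 and 0.71, and leaving out the 3 that stood apart gave 0.85, 0.80 and 0.65. All 3 genes were high where the molting genes were high: lin-42 with r = 0.91 (Spearman 0.81, permutation p = 1e-05 and 4e-05, adjusted p = 0.000142 and 0.000285), lin-29 with 0.85 (Spearman 0.84, adjusted p = 0.000244 and 0.000142 by permutation) and blmp-1 with 0.74 (Spearman 0.74, adjusted p = 0.000399 and 0.000285 by permutation). Without the 3 libraries that stood apart these were 0.84, 0.76 and 0.54. With the furrow and body-shape collagens, r was 0.78 for lin-42, 0.53 for lin-29 and 0.34 for blmp-1 (Spearman 0.70, 0.63 and 0.50, adjusted permutation p for r of 0.000356, 0.00429 and 0.0427). Leaving out the 3 libraries that stood apart gave 0.77, 0.54 and 0.23, and the 3 values were not tested against each other. All 3 were low where major sperm proteins were high, with r of −0.84 for lin-29, −0.83 for blmp-1 and −0.77 for lin-42 (Spearman −0.82, −0.79 and −0.68, adjusted permutation p of 0.00019, 0.00019 and 0.000475). These were −0.73, −0.73 and −0.59 without the 3 libraries that stood apart.

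The length of genes moved with the same libraries. The long-minus-short value correlated with blmp-1 at 0.85, with lin-29 at 0.83, with lin-41 at 0.75, with lin-42 at 0.73 and with lin-14 at 0.72, with adjusted permutation p of at most 0.00349, but with lin-46 at 0.00 (adjusted permutation p = 0.982). After the linear relation to it was removed from both sides, r was 0.81 for lin-29 and blmp-1, 0.64 for lin-29 and lin-42, 0.39 for lin-42 and blmp-1, and 0.87 for lin-42 and the molting genes. For lin-14 with lin-29 it went from 0.66 to 0.17, and for lin-41 with lin-29 from 0.58 to −0.13. For lin-41 with lin-42 it went from 0.25 to −0.68. The values after removal were not tested by permutation.

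**Figure D5:**
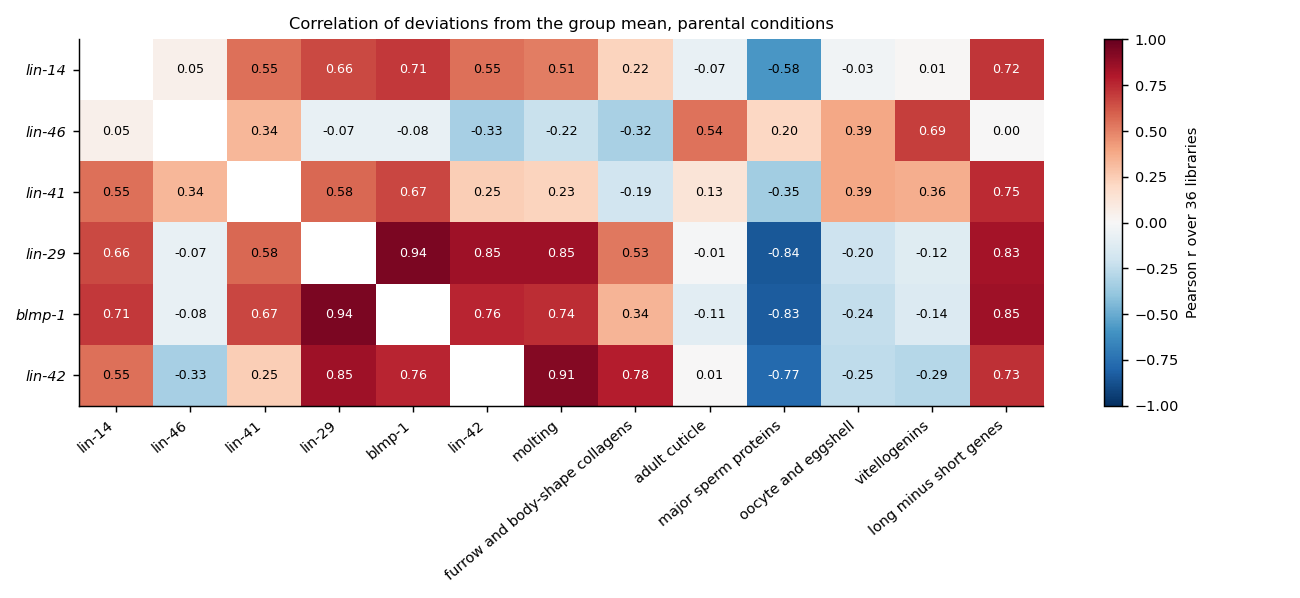
Pearson r of deviations from the group mean over 36 libraries, for the 6 genes (rows) against each other, 6 gene lists and the long-minus-short value (columns). The block of lin-29, blmp-1 and lin-42 ranges from 0.76 to 0.94, and lin-46 is highest with vitellogenins at 0.69.

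Other lists were nearer to lin-46 and lin-41. The deviations of lin-46 went with those of the vitellogenins, at r = 0.69 (Spearman 0.64, permutation p = 0.00023 and 0.00077, adjusted p = 0.000936 and 0.00293), and of the adult cuticle genes, at 0.54 (Spearman 0.55, permutation p = 0.0031 and 0.00408, adjusted p = 0.00883 and 0.0129). Without the 2 farthest libraries these were 0.62 and 0.49, and without the 3 that stood apart 0.75 and 0.57. With lin-42 the r of lin-46 was −0.33 (Spearman −0.36, permutation p = 0.0423 and 0.037, adjusted p = 0.0778 and 0.0752), which did not pass, and it was −0.56 without the 2 farthest libraries. For lin-41, which is also known to act in oocytes, the relation to the oocyte and eggshell genes rested on the ranks: r was 0.39 (permutation p = 0.0669, adjusted p = 0.112) and Spearman's rho 0.56 (permutation p = 0.0053, adjusted p = 0.0151). Without the 2 farthest libraries, the set-2 ones that stood apart, r was 0.62. The vitellogenins gave lin-41 a similar value, with r = 0.36 (adjusted permutation p = 0.0659), Spearman's rho 0.54 (adjusted permutation p = 0.0143) and r of 0.53 without the 2 farthest. The relation of lin-41 to lin-46 passed, at r = 0.34 (Spearman 0.42, adjusted permutation p = 0.0487 and 0.0389), and r was 0.43 without the 2 farthest libraries. In the 21 outcross libraries 0 of 57 relations passed after adjustment by Pearson's r or Spearman's rho, with lin-29 and lin-42 at 0.64 (adjusted p = 0.142), lin-29 and molting at 0.64 (adjusted p = 0.142) and lin-42 with lin-41 at −0.51 (adjusted p = 0.0918). There blmp-1 went less closely with lin-29 and with lin-42 than lin-29 did with lin-42, and far less than in the parental libraries.

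The genes whose library-to-library pattern was most like each member, by Pearson r over the same 36 libraries and among 15306 genes, were for lin-41 the germline RNA-binding gene gld-1 (0.97), the caspase gene ced-3 (0.96) and the translational repressor gene ifet-1 (0.96). For blmp-1 they were alg-1 (0.96), an Argonaute of the microRNA pathway, apa-2 (0.96), an adaptin gene, and pan-1 (0.96), a molting gene listed here by a transcript. For lin-29 they were pqn-47 (0.97), known for the end of the molting cycles, gei-13 (0.96) and apa-2 (0.95). The nearest of lin-42 were F49E10.2 (0.96), the hedgehog-related gene grd-1 (0.95) and Y55F3AM.14 (0.95), and those of lin-46 and lin-14 were less close, with C53D6.7 at 0.82 and dgk-2, by a transcript entry, at 0.83. These values are a description, and all genes of a library share its depth and composition.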

How the data were processed

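Whole mid-L4 animals were sequenced with a TruSeq kit, which does not keep the strand. The deposited values are raw counts per gene, made by the authors with htseq-count on reads aligned to WS220 (ce10); the overlap mode is not given in the sources used here. Of 45410 entries 3837 are named by a transcript, and 2863 of these matched a RefSeq gene. Exon lengths came from the WBcel235 annotation and were used only per kilobase and for gene length (at least 4000 bases against under 1000). The fits used edgeR 4.0.16, with limma 3.58.1 and statmod 1.5.0, under R 4.3.3. They took TMM factors, the default filter (15306 genes in 36 parental libraries, 15872 in 21 outcross libraries), robust dispersion, 1 fit per experiment with all groups. A gene passed at an adjusted p under 0.05. Correlations used deviations from the group mean. log2 CPM used a prior count of 2. Fits were tested on simulated data. Alternatives were DESeq2 1.42.0, RLE factors, library totals, no filter, a filter at a mean of 50 counts, a fit to the compared groups alone, a log2 fold change beyond 1, the replicate number as a block, all 22 outcross libraries and leaving out each library in turn; leaving out 3 libraries together was chosen after seeing the data.

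The genes named are the 8 members, up to 4 passing genes per other list and comparison, and the 3 genes with the nearest pattern. The members and lists were chosen with earlier results of these data known.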

Additional observations from a re-analysis of the deposited data

Results flagged for a closer look

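In 78 sets of 4 libraries, a group and a gene each, 8 held 1 library far from the other 3, where chance gives about 1 in 20. In lin-29 there were 3: WT F1-4DOA replicate 4 was at 9.11 CPM and the others at 26.6 to 28.1, WT F1-25C replicate 2 at 24.6 and the others at 11.4 to 13.5, and WT 1DOA x 1DOA replicate 3 at 12.1 and the others at 20.6 to 22.2. In lin-42, WT 1DOA x 4DOA replicate 3 was at 113.3 CPM and the others at 135 to 136, and WT-ctrl F5 replicate 4 at 241 and the others, the shallow replicate 2 among them, at 136 to 144. In lin-41, WT-des F3 replicate 2 was at 94.2 CPM and the others at 35.3 to 37.02. In lin-14, which holds few counts, WT 1DOA x 1DOA replicate 4 was at 0.551 CPM and the others at 0.987 to 1.03, and WT-des F5 replicate 2 at 0.129 and the others at 0.802 to 0.937.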

How the results depend on the processing

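Over the 15 comparisons, 274 of 304 alternative values of the number of genes that passed stayed at 0 and 30 did not; in 4 comparisons all did. Of 347 alternative values of the 18 fold changes with an unadjusted p under 0.05, 0 changed sign. These 18 were picked for lying far from 0 in the same data. Some of the other fold changes did change sign, such as that of blmp-1 in WT F1-4DOA against WT F1-1DOA, in 9 of 16 alternatives. With DESeq2 the number was 1 for WT F1-back against WT F1-25C, set-2 F1-1DOA against WT F1-1DOA and F5 against F3, and 2 for set-2 F1-4DOA against set-2 F1-1DOA. With a mean of at least 50 counts it was 1 for WT F1-back against WT F1-25C, for set-2 F1-4DOA against set-2 F1-1DOA and for F5 against F3, and it was 1 for F5 against F3 with RLE factors, library totals or all 22 libraries. With only the groups compared it was 1 for WT F1-25C and for WT F1-back against WT F1-1DOA and 3 for WT F1-back against WT F1-25C. Without the 3 libraries that stood apart it was 2 for WT F1-25C against WT F1-1DOA and for WT F1-back against WT F1-25C, and 1 for set-2 F1-4DOA against set-2 F1-1DOA and for WT 1DOA x 1DOA against WT F1-1DOA. Leaving out single libraries gave 0 to 1 for WT F1-4DOA, WT F1-25C and set-2 F1-1DOA against WT F1-1DOA, both interactions with set-2 and F5 against F3, 0 to 3 for set-2 F1-4DOA and 0 to 2 for set-2 F1-25C against set-2 F1-1DOA. The cause was not tested, and the share of all genes called was not computed for DESeq2 or the other alternative fits. Library totals moved all genes by log2 −0.17 in the interaction of set-2 and temperature and by −0.10 in F5 against F3, and by less elsewhere. With the replicate number as a block, 0 genes passed in all 15 comparisons. Over 190 same-numbered pairs of libraries the correlation of deviations ranged from −0.65 to 0.44, with a median of 0.004. In 2 of 51 pairs of groups every value was over 0.1. Differently numbered pairs were not compared, so whether the numbers pair particular groups, such as F3 and F5 of a line, was not tested. Depth limits lin-14, with 0 to 29 counts per library, and also lin-46, with 4 to 145.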
